A study of Mus musculus with 9 samples.

Results

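The genes of the proteasome were followed across 3 cultured mouse lymphoid lines. They were chosen by name alone, as the probe sets whose deposited description begins with proteasome or proteosome, with the interferon-inducible subunits Psmb8, Psmb9 and Psmb10 left out. This gave 74 of the 45101 probe sets of the array, for 35 genes, and all 74 passed the filter on low values (log2 signal above 4 on at least 3 of 9 arrays). By role they were 14 probe sets for 7 genes of the 20S alpha ring, 11 for 7 genes of the 20S beta ring, 7 for 4 ATPases of the 19S particle, 21 for 9 other 19S subunits, 6 for 3 assembly factors, and 13 for 4 activators and inhibitors. The description rule also took in 2 probe sets of Psmc3ip, a recombination factor named for its binding to a proteasome ATPase and no subunit. Other proteasome genes, such as Psmc1, Psmd1 and Psme3, were not analysed here.

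The proteasome is the protease that degrades proteins marked with ubiquitin. Its 20S core is a barrel of alpha rings, which gate the entrance, around beta rings, which hold the catalytic sites, and its 19S cap recognises the ubiquitin chain, removes it and unfolds the substrate with a ring of ATPases. Other caps, such as PA28 and PA200, can take the place of 19S. Dividing cells of many kinds keep the genes at high and coordinated levels, and in lymphocytes the same core also makes the peptides presented on MHC class I.

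Total RNA of each line was hybridised to Affymetrix arrays, 1 array per sample and 3 samples per line. The line labelled EBFko lacks the B lineage transcription factor EBF and is called lymphoid specified, Pax5ko lacks the factor Pax5 and is called B lineage specified, and RAG2ko lacks a subunit of the antigen receptor recombinase and is called B lineage committed. EBFko and Pax5ko cells received recombinant human Flt3 ligand and recombinant mouse IL-7, each at 10 ng/ml, whereas RAG2ko cells received IL-7 alone at 10 ng/ml, so the effects of medium and genotype cannot be told apart in either comparison with RAG2ko. Nothing in the labels tells separate cultures from repeats within a line, and p-values therefore reflect only the spread between these samples, which may be technical.

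Values below are log2 signals after quantile normalization, and differences are on the same log2 scale, where 1 is 2-fold. The median deposited signal of an array lay between 73.2 and 97.4, no 2 arrays were copies (Pearson r over probe sets at most 0.923), and the number of arrays limits the precision. The targeted genes did not all follow the labels. Ebf1 read 10.67 to 11.10 in EBFko and 9.89 to 10.06 in Pax5ko. Pax5 read 2.64 to 5.62 in Pax5ko and 6.77 to 7.33 in RAG2ko, and Rag2 read 5.96 and 5.60 on the first RAG2ko arrays but 9.10 on the third. The files do not place these probes relative to the deleted parts, so they check neither label, and lines are called by their labels throughout. The third RAG2ko array also stood apart in 20 stromal cell markers, with a mean of 9.35 against 5.88 and 6.76. In EBFko this mean lay between 8.52 and 10.16 and in Pax5ko between 8.55 and 10.40. Mean levels of 10 B lineage markers were 6.92 ± 0.65 in EBFko, 9.51 ± 0.18 in Pax5ko and 12.11 ± 0.42 in RAG2ko (SD, n = 3), 4 T cell markers were dim on every array (3.28 to 4.43), 3 NK markers averaged 8.66 in EBFko against 3.34 and 4.70 in Pax5ko and RAG2ko, 5 myeloid markers averaged 7.59, 5.98 and 4.76, and 2 erythroid markers 4.92, 5.01 and 4.70. Not every marker followed its list mean. In EBFko, Pax5ko and RAG2ko the NK marker Ncr1 averaged 4.12, 4.59 and 4.88. The myeloid markers Elane (3.49, 5.60 and 2.41) and Csf1r (7.05, 7.63 and 6.93) were highest in Pax5ko. The B lineage markers Blnk (8.97, 5.18 and 13.85), Ebf1 (10.87, 9.98 and 12.01) and Pax5 (5.14, 3.94 and 7.10) were lowest there. Rag1 (8.77, 10.44 and 8.73) was highest in Pax5ko, and Il7r (12.49, 12.27 and 12.54) was nearly level. Among stromal markers, Pdgfrb averaged 6.81, 3.79 and 3.88, so it was not level between EBFko and Pax5ko, and Postn averaged 5.23, 5.99 and 5.75. What part other cells or the third RAG2ko array had in the differences below was not tested beyond the values given without that array. In such bulk samples, fewer cells of a type and less RNA per cell cannot be told apart.

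Most proteasome genes were bright and nearly level over the lines. Of the 74 probe sets, 47 had a mean above 10, for 34 of the 35 genes (Psmd9, an assembly chaperone, had its brightest probe set at 9.84), and 9 had a mean below 6. Each gene was first read at its brightest probe set. The difference between the highest and the lowest line mean was under 0.5 for 32 of the 35 genes, with a median of 0.22. The corresponding share among all 6520 probe sets with a mean above 10 was 60.1%, with a median of 0.40, against 91.5% of the 47 proteasome probe sets at that brightness. The 3 genes over 0.5 were Psma6, Psmd8 and Psmf1. At the other end, the line means of Psma3, an alpha ring subunit, spanned 0.03, and those of Psmd14, the deubiquitinase of the 19S lid, spanned 0.04. The RAG2ko arrays spread more widely than these spans, with 14.04, 13.94 and 13.46 for Psma3 and 13.52, 13.62 and 13.24 for Psmd14. Without RAG2ko replicate 3, RAG2ko exceeded Pax5ko and EBFko by 0.20 and 0.19 for Psma3 and by 0.09 and 0.14 for Psmd14.

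**Figure D1:**
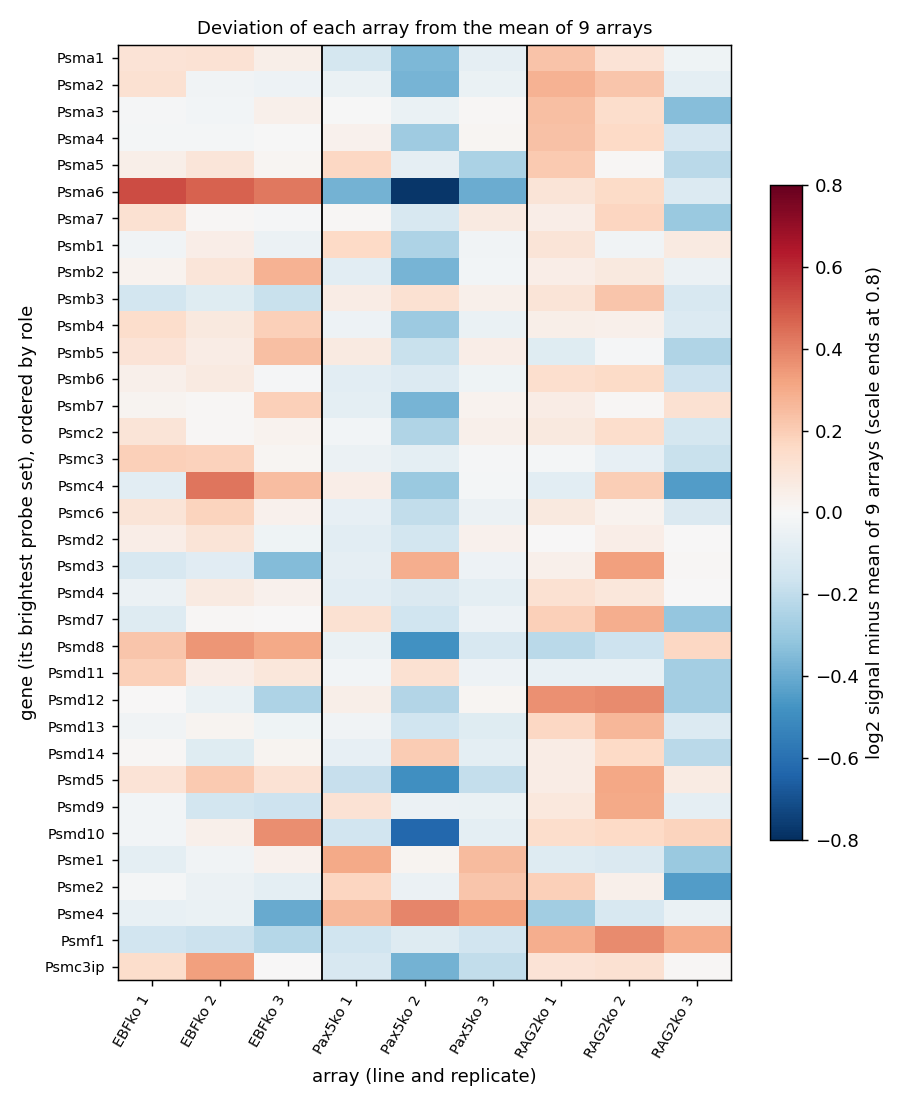
Log2 signal of the brightest probe set of each of 35 proteasome genes (vertical axis, ordered by role) on each of 9 arrays (horizontal axis), drawn as its deviation from the mean of the 9 arrays. Most cells are pale. Psma6 is high on all EBFko and low on all Pax5ko arrays, Psmf1 is high on all RAG2ko arrays and Psme4 on all Pax5ko arrays, and the columns of Pax5ko replicate 2 and RAG2ko replicate 3 are darker blue than their neighbours.

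Some of the spread followed arrays. Pax5ko replicate 2 was the lowest array of its line for 27 of the 35 genes, with a median deviation of -0.14 from the line mean. RAG2ko replicate 3 was the lowest of its line for 28 of 35, with a median deviation of -0.13. Pax5ko replicate 2 had the lowest stromal marker level of its line and RAG2ko replicate 3 the highest. EBFko replicate 3, the lowest of its line for 19 of 35 with a median deviation of -0.03, had the highest stromal marker level of its line (10.16). EBFko replicate 2, the highest of its line for 16 of 35, had the lowest (8.52).

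Few proteasome probe sets passed limma's test (adjusted p under 0.05 after Benjamini-Hochberg over 40928 probe sets). The 3 comparisons share arrays. In Pax5ko against EBFko none of the 74 was higher and 1 was lower, where 2.64% of all probe sets tested were higher and 2.58% lower. In RAG2ko against Pax5ko none was higher and 1 was lower, beside 4.98% and 4.94% of all probe sets. In RAG2ko against EBFko 3 were higher and none lower, beside 6.41% and 6.23%. At an unadjusted p under 0.05 there were 2 higher and 6 lower in the first comparison (8.82% and 9.29% of all probe sets), 7 and 6 in the second (13.7% and 11.8%), and 5 and 4 in the third (14.3% and 12.8%). Without RAG2ko replicate 3 the counts higher and lower were 0 and 1, 0 and 0, and 4 and 0, beside 3.05% and 3.01%, 4.56% and 6.32%, and 6.62% and 7.85% of all probe sets. The fourth was a dim probe set of Psmd9 (1423387_at), at 1.18 ± 0.23 (SE) with a limma adjusted p of 0.0234, against 0.72 ± 0.40 and 0.295 with that array.

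The default prior of limma pools bright and dim probe sets. With a prior that follows the mean signal (trend and robust settings), 2 proteasome probe sets were higher and 4 lower in Pax5ko against EBFko, where 4.63% and 4.70% of all probe sets passed. The counts were 5 and 4 in RAG2ko against Pax5ko (7.77% and 7.55%), and 3 and 1 in RAG2ko against EBFko (8.94% and 8.94%). These took in all 5 probe sets that passed under the default prior.

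Groups that did not overlap were more frequent than calls. In Pax5ko against EBFko all 3 Pax5ko arrays lay above all EBFko arrays for 9 of the 74 probe sets and below them for 20, beside 14.3% and 14.7% of all probe sets. In RAG2ko against Pax5ko the counts were 14 and 7 (18.2% and 14.4% of all), and in RAG2ko against EBFko 8 and 12 (18.2% and 15.2%). The median difference over the 74 was -0.08, 0.10 and 0.00 in the 3 comparisons, where the median over all probe sets was -0.01, 0.07 and 0.06. Without RAG2ko replicate 3 the latter 2 medians of the 74 were 0.18 and 0.08, beside 0.10 and 0.10 for all. Centring each array on its median instead of quantile normalization turned the sign of the first, to 0.10, and moved the others to 0.19 and 0.26. That scaling also moved the median of the 6520 bright probe sets from 0.00 to 0.19 in Pax5ko against EBFko and from 0.02 to 0.23 in RAG2ko against EBFko, and that of all probe sets to 0.07 and 0.12. In RAG2ko against Pax5ko it moved the bright probe sets only from 0.01 to 0.04, while the members moved from 0.10 to 0.19.

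The intervals were narrow enough to bound the differences of bright members. For 34, 35 and 35 of the 35 brightest probe sets, the 95% confidence interval from limma lay within 2-fold in Pax5ko against EBFko, RAG2ko against Pax5ko and RAG2ko against EBFko. The exception was Psma6. Over all 74 the counts were 55, 55 and 52. Among proteasome probe sets with a mean above 10 they were 46, 47 and 47 of 47, where 82.8%, 78.7% and 75.9% of all such probe sets had an interval within 2-fold. Differences over 2-fold were seen for 4, 6 and 7 of the 74, none of them with a mean above 10. Many of these were very dim, such as a Psmd11 probe set (1432726_at) that read 5.19, 0.56 and 4.64 on the 3 EBFko arrays.

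**Figure D2:**
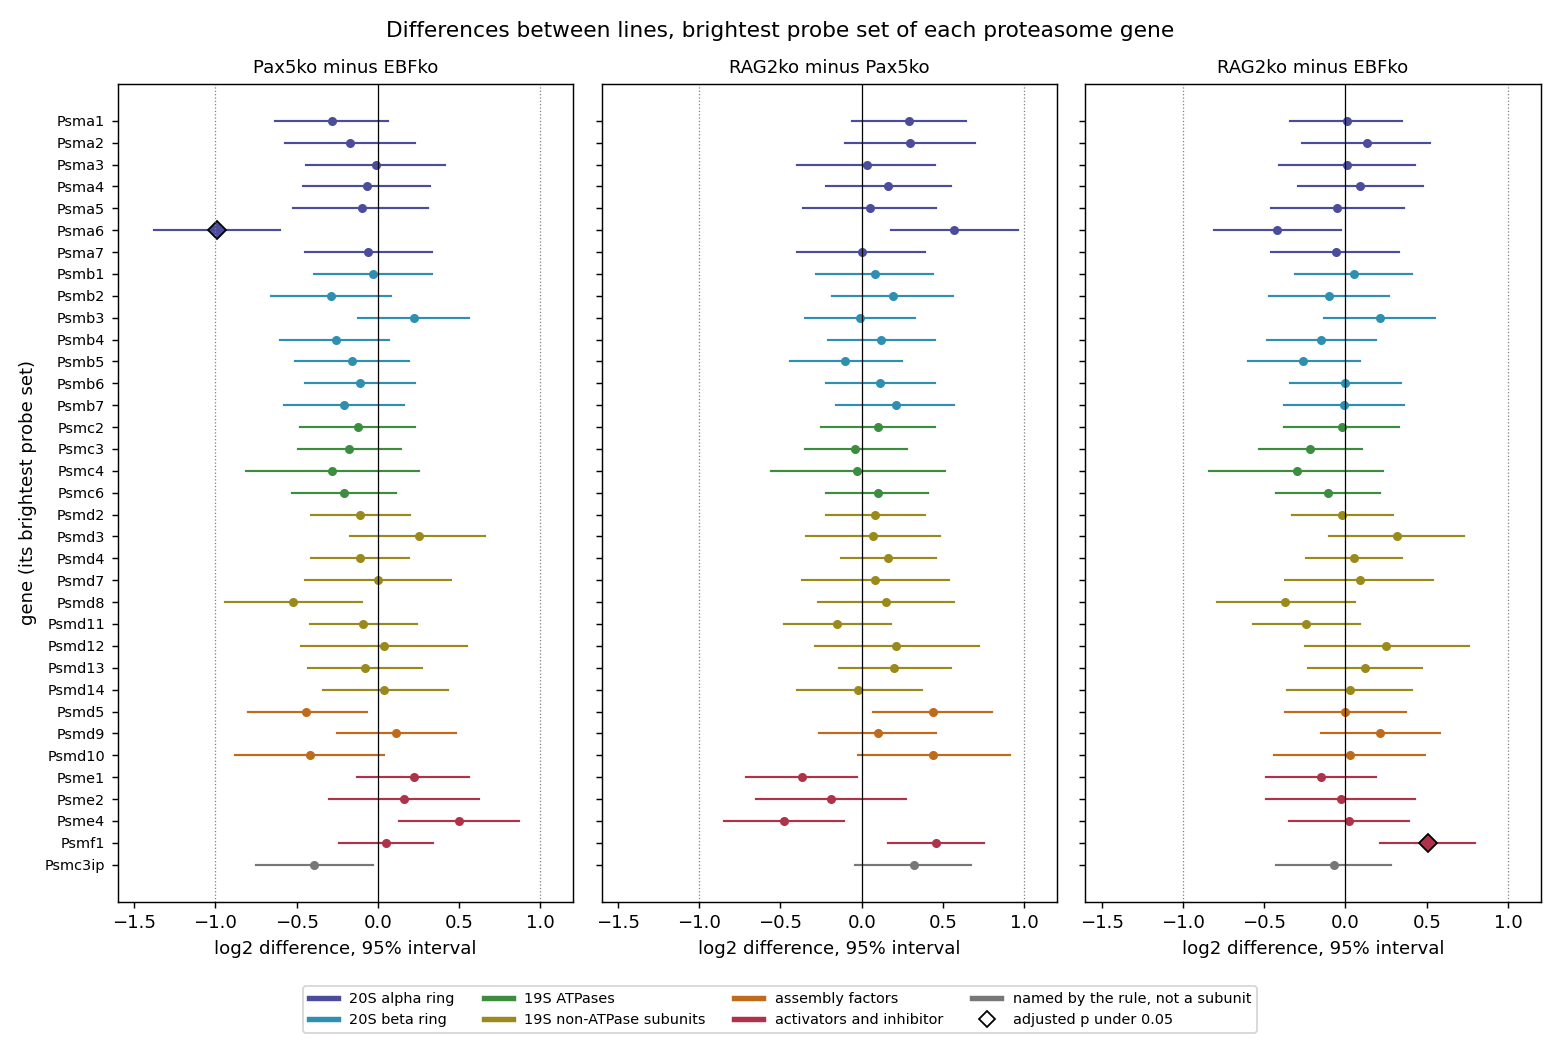
Difference between lines in log2 signal (horizontal axes) with its 95% confidence interval for the brightest probe set of each of 35 proteasome genes (vertical axis), coloured by role, for the 3 comparisons; dotted lines mark 2-fold and diamonds an adjusted p under 0.05. All intervals except that of Psma6 in Pax5ko minus EBFko lie within 2-fold, and the diamonds are Psma6 at -0.99 and Psmf1 at 0.51.

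In the alpha ring, Psma6 had about 2-fold less signal in Pax5ko than it had in EBFko. It encodes an alpha subunit of the core. Its brightest probe set (1416506_at) read 14.21, 14.16 and 14.11 in EBFko, 13.31, 12.91 and 13.29 in Pax5ko, and 13.79, 13.84 and 13.58 in RAG2ko. The 3 lines did not overlap, with EBFko highest and Pax5ko lowest. The difference of Pax5ko from EBFko was -0.99 ± 0.17 (SE, limma adjusted p = 0.0177), a fold of 0.504. RAG2ko exceeded Pax5ko by 0.57 ± 0.17 (adjusted p = 0.0788 with limma) and differed from EBFko by -0.42 ± 0.17 (adjusted p = 0.154), and without RAG2ko replicate 3 these were 0.65 (0.0646) and -0.34 (0.246). With the trend and robust prior both passed on all arrays, with limma adjusted p-values of 0.00281 and 0.0147.

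The other probe sets of Psma6 also had all Pax5ko arrays below all EBFko arrays. 1435317_x_at, whose suffix marks probes that can match other transcripts, read 9.50, 9.57 and 9.45 in EBFko and 8.23, 8.87 and 7.54 in Pax5ko, a difference of -1.29 (limma adjusted p = 0.0874, and 0.0123 with the trend and robust prior). 1435316_at differed by -1.23 (adjusted p = 0.146), and Pax5ko replicate 2, at 6.71, lay close to the EBFko arrays at 6.90 to 6.95. In the authors' deposited table of ratios the brightest probe set stood at 1.257 for EBFko, 0.560 for Pax5ko and 0.953 for RAG2ko. The call rested on the number of arrays: without EBFko replicate 1 or 2, or any 1 Pax5ko array, the difference stayed between -1.06 and -0.86 and the limma adjusted p was 0.0502 to 0.0722. With arrays centred on their median it was -0.76 (adjusted p = 0.140). With replicate number added to the model as a block the difference was -0.99 and did not pass (limma adjusted p = 0.0606).

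The other 6 alpha ring genes did not pass in any comparison. In Pax5ko against EBFko all 7 brightest probe sets had a negative difference, from -0.99 to -0.01 with a median of -0.10. Psma1, another alpha subunit, read 13.72, 13.73 and 13.66 in EBFko, 13.47, 13.25 and 13.54 in Pax5ko, and 13.84, 13.72 and 13.58 in RAG2ko. Its Pax5ko arrays lay below all others, at -0.28 from EBFko (limma adjusted p = 0.384) and 0.29 below RAG2ko (adjusted p = 0.272, and 0.0467 with the trend and robust prior).

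The 3 catalytic subunits stayed within narrow bounds. Psmb5, which carries the chymotrypsin-like site, read 12.62, 12.57 and 12.75 in EBFko, 12.58, 12.33 and 12.56 in Pax5ko, and 12.41, 12.50 and 12.27 in RAG2ko. Its RAG2ko arrays lay below its EBFko arrays, by 0.26 on average, with a 95% interval of -0.60 to 0.09 for RAG2ko minus EBFko (limma adjusted p = 0.320). Psmb6, with the caspase-like site, read 12.51, 12.54 and 12.46 in EBFko, 12.38, 12.36 and 12.43 in Pax5ko, and 12.60, 12.62 and 12.30 in RAG2ko. The Pax5ko arrays lay just below the EBFko arrays, and RAG2ko spanned both. Psmb7, with the trypsin-like site, read 13.72, 13.71 and 13.89 in EBFko, 13.62, 13.33 and 13.73 in Pax5ko, and 13.76, 13.71 and 13.82 in RAG2ko, with all lines overlapping. The limma adjusted p of these 3 genes was at least 0.320 in every comparison.

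The rest of the beta ring did not pass either. The 7 brightest probe sets of the ring had differences of -0.29 to 0.22 in Pax5ko against EBFko, -0.10 to 0.21 in RAG2ko against Pax5ko and -0.26 to 0.21 in RAG2ko against EBFko. Psmb3, a noncatalytic beta subunit, was the 1 beta gene whose brightest probe set was higher on every Pax5ko array (12.88 to 12.96) than on every EBFko array (12.66 to 12.74), by 0.22 (limma adjusted p = 0.512). The other Psmb3 probe set (1417052_at) ran the opposite way without overlap, with 12.61 to 12.71 in EBFko and 12.12 to 12.52 in Pax5ko, a difference of -0.30 (adjusted p = 0.421).

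The 3 inducible subunits that replace the catalytic ones in the immunoproteasome were outside the description rule and also did not pass. Psmb8 averaged -0.53 in Pax5ko against EBFko (limma adjusted p = 0.145) and 0.53 in RAG2ko against Pax5ko (0.101). Psmb9 differed by 0.39 between RAG2ko and EBFko (0.256), and Psmb10 by -0.41 between Pax5ko and EBFko (0.342).

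None of the genes of the 19S particle that the description rule took in passed in any comparison. The 4 ATPases Psmc2, Psmc3, Psmc4 and Psmc6, part of the ring that unfolds substrates, differed by -0.28 to -0.12 in Pax5ko against EBFko, by -0.04 to 0.10 in RAG2ko against Pax5ko and by -0.30 to -0.02 in RAG2ko against EBFko. The 9 other 19S genes, which include the scaffold Psmd2 and the ubiquitin receptor Psmd4, had medians of -0.08, 0.08 and 0.05. Psmd8, a lid subunit, had the widest range, with 12.76, 12.89 and 12.84 in EBFko, 12.48, 12.05 and 12.41 in Pax5ko, and 12.32, 12.37 and 12.70 in RAG2ko. Its EBFko arrays lay above all others. The difference of Pax5ko from EBFko was -0.52 ± 0.18 (SE), with a limma adjusted p of 0.179, and of 0.0209 with the trend and robust prior.

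Among the chaperones that help assemble the 19S base, Psmd5 and Psmd10 were lowest in Pax5ko without passing. Psmd5 read 11.30, 11.40 and 11.31 in EBFko, 10.70 to 11.01 in Pax5ko, and 11.25, 11.50 and 11.26 in RAG2ko. All Pax5ko arrays lay below the others, at -0.44 ± 0.16 from EBFko (limma adjusted p = 0.192), and RAG2ko minus Pax5ko was 0.44 ± 0.16 (adjusted p = 0.132). With the trend and robust prior these adjusted p-values were 0.0396 and 0.0272. Psmd10, known as gankyrin, had 10.19, 9.71 and 10.26 in Pax5ko, below 10.32 to 10.71 in EBFko and 10.48 to 10.52 in RAG2ko. Its differences were -0.42 (limma adjusted p = 0.330) and 0.44 (0.212).

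Psmf1 was higher in RAG2ko than in EBFko by 1.42-fold to 1.59-fold at the probe sets that passed. It encodes PI31, first described as an inhibitor of the 20S core in vitro. Its brightest probe set (1451337_at) read 9.97, 9.95 and 9.89 in EBFko, 9.96, 10.02 and 9.97 in Pax5ko, and 10.41, 10.50 and 10.42 in RAG2ko. The RAG2ko arrays lay above all others and the other 2 lines overlapped. RAG2ko exceeded EBFko by 0.51 ± 0.13 (SE, limma adjusted p = 0.0395), a fold of 1.42. It exceeded Pax5ko by 0.46 ± 0.13 (adjusted p = 0.0648), which did not pass, while the trend and robust prior gave 0.0156. Over all alternatives with a test this adjusted p ranged from 0.000412 to 0.213 and passed in 5.

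The next probe sets of Psmf1 also passed in RAG2ko against EBFko. 1424370_s_at read 8.52, 8.57 and 8.48 in EBFko and 9.29, 9.19 and 9.09 in RAG2ko, a difference of 0.67 ± 0.14 (limma adjusted p = 0.0235, fold 1.59). 1424369_at read 7.87, 7.87 and 7.96 against 8.72, 8.56 and 8.33, a difference of 0.64 ± 0.16 (adjusted p = 0.0438, fold 1.55), and here the Pax5ko arrays, at 8.07 to 8.36, lay above EBFko and overlapped RAG2ko. The fourth, 1424371_at, differed by 0.59 (adjusted p = 0.342). Probe sets of 1 gene share its RNA and are not separate evidence. The authors' deposited table gave the brightest probe set ratios of 0.938 for EBFko, 0.974 for Pax5ko and 1.494 for RAG2ko.

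Without RAG2ko replicate 3 the calls of Psmf1 remained, at 0.52, 0.72 and 0.74 for 1451337_at, 1424370_s_at and 1424369_at, with limma adjusted p-values of 0.0466, 0.0263 and 0.0266. Leaving out any other array ended the call of 1451337_at (adjusted p 0.0560 to 0.118) and of 1424369_at (0.0631 to 0.132). For 1424370_s_at it ended without any 1 EBFko array or RAG2ko replicate 1 or 2 (0.0644 to 0.0798). Without quantile normalization the 3 differences were 0.45, 0.47 and 0.36, with adjusted p-values of 0.0663, 0.0770 and 0.176. With the replicate block none of the 3 passed, and the limma adjusted p was 0.0648 for 1424370_s_at and 0.0757 for 1424369_at.

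Psme4 was highest in Pax5ko at each of its 7 probe sets. It encodes PA200, a cap of the 20S core that works without ATP or ubiquitin. The brightest probe set (1426823_s_at) read 11.89, 11.90 and 11.55 in EBFko, 12.21, 12.34 and 12.27 in Pax5ko, and 11.67, 11.82 and 11.90 in RAG2ko. The Pax5ko arrays lay above all others, and EBFko and RAG2ko overlapped. The difference was 0.50 ± 0.16 against EBFko (SE, limma adjusted p = 0.143), and RAG2ko minus Pax5ko was -0.48 ± 0.16 (adjusted p = 0.108). Neither passed, while with the trend and robust prior the adjusted p-values were 0.0147 and 0.0124. Without RAG2ko replicate 3 RAG2ko minus Pax5ko was -0.53 (limma adjusted p = 0.103).

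The second probe set of Psme4, 1452211_at, read 11.32, 11.40 and 11.01 in EBFko, 11.73, 11.85 and 11.82 in Pax5ko, and 11.20, 11.29 and 11.53 in RAG2ko. Its order of lines was that of the first, with 0.56 against EBFko (limma adjusted p = 0.123) and -0.46 for RAG2ko minus Pax5ko (0.136). The third in brightness, 1426824_at, had smaller differences of 0.22 and -0.22 (limma adjusted p = 0.537 and 0.424), and its lines overlapped. The 1 probe set that passed was a dim one, 1445147_at. It read 5.93, 6.59 and 6.67 in EBFko, 6.96, 7.61 and 6.76 in Pax5ko, and 5.95, 5.95 and 5.41 in RAG2ko. RAG2ko minus Pax5ko was -1.34 ± 0.31 (limma adjusted p = 0.0375), and leaving out any 1 array other than EBFko replicate 1 ended the call, with adjusted p-values of 0.0508 to 0.0985 and 0.0793 without RAG2ko replicate 3. The replicate block also ended it (limma adjusted p = 0.0575). In the authors' deposited table the brightest probe set stood at 0.897 for EBFko, 1.264 for Pax5ko and 0.943 for RAG2ko. For 1445147_at the authors' deposited table gave 0.987, 1.513 and 0.964, which makes RAG2ko minus Pax5ko -0.65 on the log2 scale, against -1.34 above.

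**Figure D3:**
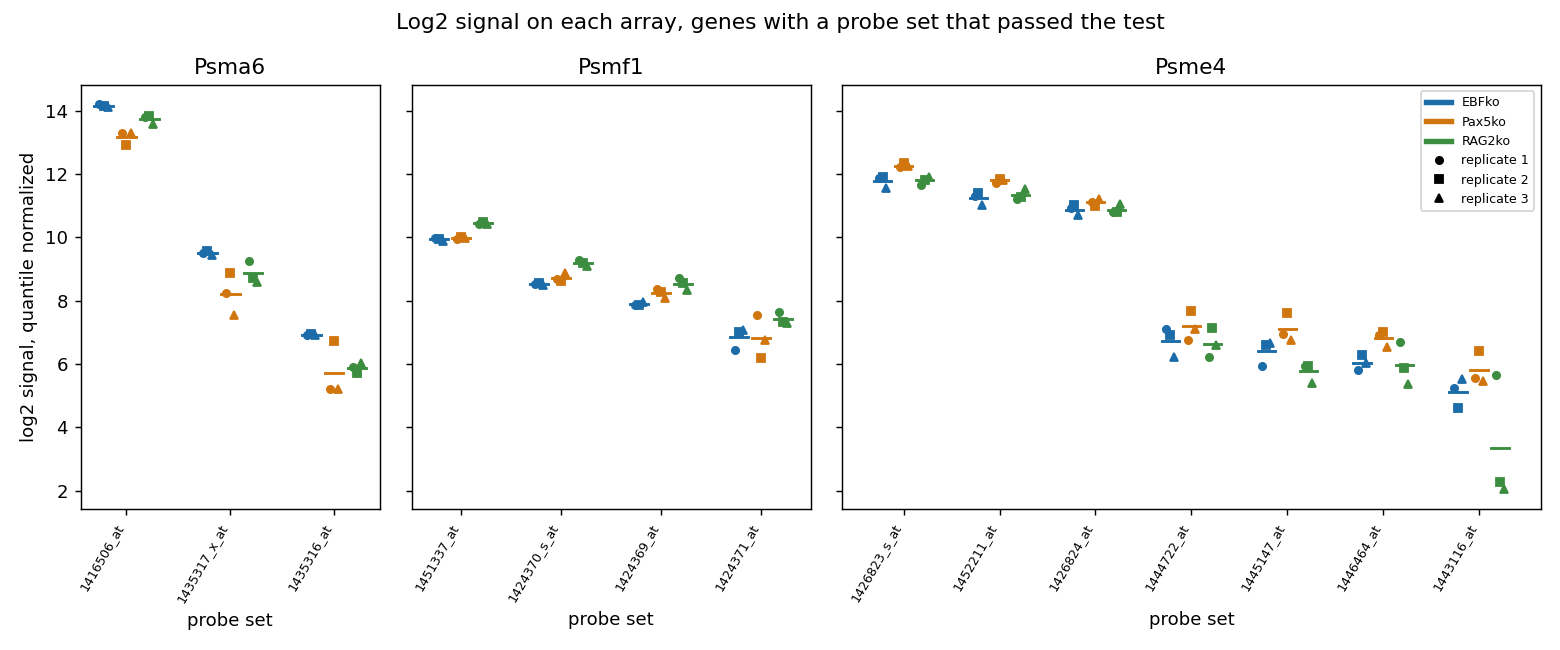
Log2 signal (vertical axis) of every probe set of Psma6, Psmf1 and Psme4 (horizontal axis, brightest first), by array; colours are lines, symbols are replicates and bars are line means. Psma6 is lowest in Pax5ko, Psmf1 is highest in RAG2ko at each of its 4 probe sets and Psme4 is highest in Pax5ko at each of its 7; levels of different probe sets are not comparable.

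With all arrays, the subunits of PA28, the interferon-inducible cap linked to antigen processing, had the same highest line as Psme4 at smaller differences. Psme1 read 12.65, 12.70 and 12.76 in EBFko, 13.03, 12.75 and 12.98 in Pax5ko, and 12.62, 12.61 and 12.43 in RAG2ko. Its RAG2ko arrays lay below all others, by -0.37 from Pax5ko (limma adjusted p = 0.169, and 0.0204 with the trend and robust prior). Psme2 read 12.51, 12.48 and 12.45 in EBFko, 12.70, 12.48 and 12.75 in Pax5ko, and 12.72, 12.57 and 12.08 in RAG2ko, where replicate 3 was the lowest of the 9 arrays and the lines overlapped. Without RAG2ko replicate 3, RAG2ko minus Pax5ko was 0.00 for Psme2 (limma adjusted p = 0.997), so Pax5ko was then not higher.

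Promoter sequences, taken from RefSeq on GRCm38.p6, were matched by symbol for 29 of the 35 genes. The 250 bases before the start are shown for the genes with a probe set that passed, and for Psmb5 as a catalytic subunit that did not. Capitals mark matches to 4 motifs searched on both strands. TGACNNNGC is the core of the antioxidant response element, which the proteasome regulator Nfe2l1 binds. CCAAT is the CCAAT box. A palindromic form of the EBF1 site was a separate motif, whose letters are not given here. CCGGAA is the core bound by ETS factors. Of the 4 motifs, CCGGAA was added after the sequences were seen. Psma6 is shown at the downstream of its 2 starts (chr12:55398575-55398824, plus strand), Psmf1 at chr2:151741311-151741560 (minus), Psme4 at chr11:30771525-30771774 (plus) and Psmb5 at chr14:54617996-54618245 (minus). The Psmf1 window lies inside the span given for that gene (151716062 to 151744199), so it precedes an internal start. The sequence before the outer end of Psmf1 is not shown.
Psma6: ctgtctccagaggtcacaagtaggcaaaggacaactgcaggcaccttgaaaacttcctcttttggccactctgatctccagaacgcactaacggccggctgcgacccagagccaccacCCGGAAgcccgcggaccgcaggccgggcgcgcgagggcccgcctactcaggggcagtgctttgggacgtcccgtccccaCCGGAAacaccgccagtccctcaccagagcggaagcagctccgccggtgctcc
Psmf1: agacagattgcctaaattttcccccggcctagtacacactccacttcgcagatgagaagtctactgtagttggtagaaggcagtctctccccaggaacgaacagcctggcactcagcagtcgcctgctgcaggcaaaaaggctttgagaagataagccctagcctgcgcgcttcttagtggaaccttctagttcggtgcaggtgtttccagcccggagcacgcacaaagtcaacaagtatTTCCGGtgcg
Psme4: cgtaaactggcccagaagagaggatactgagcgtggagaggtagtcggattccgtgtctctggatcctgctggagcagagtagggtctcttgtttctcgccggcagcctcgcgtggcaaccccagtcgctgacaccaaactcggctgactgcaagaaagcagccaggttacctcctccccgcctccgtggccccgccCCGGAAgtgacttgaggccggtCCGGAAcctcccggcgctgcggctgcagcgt
Psmb5: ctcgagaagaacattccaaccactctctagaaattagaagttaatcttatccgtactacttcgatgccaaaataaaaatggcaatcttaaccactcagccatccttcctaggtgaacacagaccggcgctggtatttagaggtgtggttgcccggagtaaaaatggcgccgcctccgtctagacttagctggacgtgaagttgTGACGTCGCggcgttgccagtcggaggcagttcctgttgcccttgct
Psma6, Psmf1 and Psme4 each held CCGGAA, at 132 and 53 bases before the start in Psma6, 10 in Psmf1, and 53 and 31 in Psme4, counted to the first base of the match. The upstream start of Psma6 (chr12:55383972-55384221, plus strand), not shown, held no CCGGAA and held CCAAT at 136 and 29 bases before it. Psmb5 held TGACNNNGC at 47 bases before the start. No match shown overlaps a match to another motif. Over the 29 genes, CCGGAA was found in 13 (44.8%), against 13.6% of 27025 genes with a promoter in the same table. TGACNNNGC was found in 5 (17.2% against 11.5%), in Psmb5, Psmb6, Psmc6, Psmd9 and Psmd12. CCAAT was found in 11 (37.9% against 37.5%) and the EBF1 site in none (against 0.914%). The comparison was not adjusted for base composition, and a match describes letters, not binding.

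Genes that supply the proteasome with substrate were read as lists, each gene at its brightest probe set. Of 17 measured genes that make, carry or trim ubiquitin or deliver substrates, none passed in Pax5ko against EBFko, 2 were higher and 1 lower in RAG2ko against Pax5ko (4.98% and 4.94% of all probe sets), and none was higher and 2 were lower in RAG2ko against EBFko (6.41% and 6.23%). Their median differences were -0.11, 0.03 and -0.06, beside -0.01, 0.07 and 0.06 over all probe sets. Zfand5, a proteasome-binding protein, read 12.27, 12.13 and 12.33 in EBFko, 12.44, 12.55 and 12.55 in Pax5ko, and 11.65, 11.62 and 11.79 in RAG2ko. All RAG2ko arrays lay below the others, by -0.83 from Pax5ko (limma adjusted p = 0.0107) and -0.56 from EBFko (0.0389), and by -0.88 (0.0140) and -0.61 (0.0359) without RAG2ko replicate 3.

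The shuttle factor Rad23b fell by 0.64 in RAG2ko against EBFko (limma adjusted p = 0.0322). Sem1, a small subunit of the 19S lid whose description does not begin with proteasome, read 13.30, 13.15 and 13.23 in Pax5ko and 13.74, 13.79 and 13.85 in RAG2ko, a rise of 0.56 (0.0432). The shuttle factor Ubqln2 rose by 1.26 in the same comparison (0.0428). Without RAG2ko replicate 3 the calls of Rad23b, Sem1 and Ubqln2 were lost (adjusted p = 0.0550, 0.0665 and 0.0818).

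Of 11 measured genes of the response that raises proteasome gene transcription when the proteasome is blocked, 2 rose in RAG2ko against EBFko, where 6.41% of all probe sets were higher, and no other difference passed in any comparison. The median differences of the list were 0.08, -0.08 and -0.08. Nfe2l1, the central factor of that response, differed by 0.08, -0.11 and -0.02 in the 3 comparisons, with limma adjusted p-values of at least 0.777. The genes that rose were Ngly1, which removes glycans from Nfe2l1 and other proteins, and Syvn1, a ubiquitin ligase of the endoplasmic reticulum. Ngly1 read 10.92, 11.18 and 11.02 in EBFko and 11.81, 11.64 and 11.82 in RAG2ko, a difference of 0.72 (limma adjusted p = 0.0162). Syvn1 read 8.95 to 9.0 against 10.01, 9.91 and 10.55, a difference of 1.17 (0.0119). Without RAG2ko replicate 3 these were 0.69 (0.0293) and 0.97 (0.0144), and Syvn1 then also passed in Pax5ko against EBFko, at 0.70 (0.0498, against 0.125 with it).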

How the data were processed

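Gene expression was measured on 9 Affymetrix arrays, 3 per line. The deposited matrix holds 1 linear signal intensity per probe set and array. GCRMA is named per the submitters' processing notes, but the trimmed mean was 500.0 on every array (2% left out at each end) and the distributions differed, so how these values were made is not given in the sources used here. The deposited table of each line holds 1 ratio per probe set against an unstated reference. It has no replicates and served as an alternative source.

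Signals were log2 transformed, quantile normalized and tested two-sided in R 4.3.3, with 1 limma 3.58.1 model (eBayes after lmFit) over the 9 arrays. Probe sets above 4 on at least 3 arrays (40928) were tested without 64 controls, with calls at an adjusted p under 0.05. The symbols of 32 member probe sets came from a RefSeq accession, of 22 from a shared description and of 20 from a description matched by hand. Each member could be named; values on every array were given for called members whose groups did not overlap, catalytic subunits and activators. Psma1, Psmd5, Psmd8, Psmd10 and Psmb3 were added after their values were seen, as were the genes named from the related lists. From the list of ubiquitin and delivery genes, 1 gene is not reported here. The members and lists were chosen with earlier results of these data known.

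The fit was tested on simulated data with known changes in 200 probe sets per size. Of changed probe sets with a mean above 10, 0% were called at a change of 0.5 in each comparison. At a change of 1, 52.0% to 64.3% were called. False calls made up 4.64% to 6.89% of calls. A difference near 0.5 that did not pass is therefore not shown to be absent. Arrays with the same replicate number did not deviate together in every pair of lines, so the numbers were not taken as pairs. Correlations of deviations were -0.006 to 0.004 for number 1 and 0.039 to 0.114, all positive, for numbers 2 and 3. Whether arrays of the same number share a batch was not tested, and a replicate block was fitted as an alternative. Alternatives changed the scaling, filter, signal floor, probe set choice, prior, array weights, replicate block, arrays fitted or source of values, and left out each array.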

Additional observations from a re-analysis of the deposited data

How the results depend on the processing

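Counts of called proteasome probe sets depended on the settings, and none of the results named below changed direction while called. In Pax5ko minus EBFko, 1 lower call became 0 with arrays centred on the median, 2 with a filter at 6, 4 with the trend and robust prior and 3 with array weights, and 0 higher calls became 2 with signals below 64 raised to 64 and with the trend and robust prior. In RAG2ko minus Pax5ko, 0 higher calls became 3 with the filter at 6, 5 with the floor of 64, 1 with 1 probe set per description, 5 with the trend and robust prior and 2 with array weights. The 1 lower call became 0 with centring, 2 with the filter at 6, 3 with the floor, 0 with 1 probe set per description, 4 with the trend and robust prior and 0 in a fit of the 6 arrays compared. In RAG2ko minus EBFko, 3 higher calls became 0 without quantile normalization, with centring and in the fit of 6 arrays, and 1 without a filter, with 1 probe set per description and without probe sets marked as matching several transcripts. Its 0 lower calls became 1 with the floor, the trend and robust prior and the fit of 6 arrays. The replicate block left 0 calls in each comparison. The numbers were not taken as pairs (correlations of deviations from -0.006 to 0.114, and 10 of 18 best with their own number). The stromal marker mean was highest on replicate 3 in each line (10.16, 10.40 and 9.35 in EBFko, Pax5ko and RAG2ko). Whether arrays of the same number share a batch was not tested. Leaving out 1 array gave 0 to 0 higher and 0 to 2 lower calls in Pax5ko minus EBFko, 0 to 0 and 0 to 1 in RAG2ko minus Pax5ko, and 0 to 4 and 0 to 1 in RAG2ko minus EBFko. The cause was not tested, except that leaving arrays out or fitting 6 leaves fewer samples.

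The median difference of the members became 0.10, 0.19 and 0.26 with centring, and in RAG2ko minus Pax5ko and RAG2ko minus EBFko 0.20 and 0.12 without quantile normalization and 0.19 and 0.11 in the deposited ratio tables. Leaving out 1 array gave -0.11 to -0.04, 0.06 to 0.18 and -0.04 to 0.08. Psma6 in Pax5ko minus EBFko kept its sign in all 21 alternatives, between -1.17 and -0.76, with a limma adjusted p from 6.68e-05 to 0.14, and lost its call in 7. Dim probe sets limit what can be seen: 9 of the 74 lay below 6 on average, and none of these had an interval within 2-fold in Pax5ko minus EBFko or RAG2ko minus EBFko.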
